A study of Mus musculus with 44 samples.

Results

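P2rx1, Krt80, Dynlt1b, Ncs1, Cfap43 and Zfp667 are 6 of the 14699 genes measured by RNA-seq in dendritic cells (DCs) that were sorted from mouse lymph nodes at 4 times of day. They were chosen because their level or their time course stood apart in the libraries labelled KO, in which the clock gene Bmal1 (Arntl) was targeted in conventional DCs. The values of KO and WT libraries that chose them are therefore given as a description, without a test. P2rx1, Krt80, Dynlt1b and Ncs1 were apart in level, and Cfap43 and Zfp667 in time course. The choice was meant to hold genes outside chromosome 7, which carries Arntl. Zfp667 goes against this, since it lies on chromosome 7, 107 Mb from Arntl. The other 5 genes lie on chromosomes 11, 15, 17, 2 and 19 in the order given above. All 6 genes had at least 1 CPM (counts per 1000000 reads) in at least 5 of the 44 libraries, also when KO libraries were not counted.

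The molecular clock of a cell is a loop in which BMAL1, together with CLOCK, drives the transcription of its own repressors and of many output genes. In DCs, as in other leukocytes, it imposes a daily rhythm on migration and on genes of T cell activation. The 6 genes belong to no common pathway. P2RX1 is a cation channel opened by extracellular ATP, NCS1 is a calcium sensor, KRT80 and DYNLT1B are parts of the intermediate filament and microtubule motor systems, CFAP43 is a protein of motile cilia, and ZFP667 is a zinc finger protein.

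The sorted cells were CD45+CD11c+MHCII high cells of the draining inguinal lymph node, taken 24 h after mice had received B16-F10-OVA cells, a melanoma line that expresses ovalbumin, or PBS. Injections were given at ZT3, ZT9, ZT15 or ZT21, where ZT (zeitgeber time) counts hours after lights on in a cycle of 12 h of light and 12 h of dark. KO stands for 12 libraries (3 per timepoint) of Clec9a-cre:Bmal1 flox mice given B16-F10-OVA cells, WT for 20 libraries (5 per timepoint) of wild-type mice given the same cells, and PBS for 12 libraries (3 per timepoint) of wild-type mice given PBS. The study's methods give female mice of 8 to 12 weeks. The cre is heterozygous and acts in cells with a history of Clec9a expression, so that cells of the sort outside this lineage keep an intact Bmal1. The transgenic line was bred separately from the purchased C57BL/6N mice, and the methods do not say that WT mice were littermates, so genotype and origin of the mice cannot be told apart. The mice are reported to come from 2 independent experiments, but the labels do not assign them.

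In units of 1000000 reads, the reads on genes per library ranged from 29.4 to 55.8 in KO, from 20.1 to 29.0 in WT and from 28.0 to 49.6 in PBS. Every WT library was thus shallower than every KO library, and 1 read was worth at most 0.0498 CPM. Arntl averaged 19.9 CPM in KO, 14.8 CPM in WT and 21.7 CPM in PBS, so its gene-level value, which does not resolve the floxed exon, was not lower in the libraries labelled KO. Summed DC markers (11 genes) ranged from 31245 to 41392 CPM in KO, from 29496 to 45143 CPM in WT and from 30468 to 43593 CPM in PBS. No 2 libraries held identical values.

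P2rx1 (chr11:72999056-73015200, plus strand, GRCm38.p6) encodes an ATP-gated channel known from platelets, smooth muscle and myeloid cells. Of the 6 genes it had the largest ratio of KO to WT. In KO it measured, in CPM, 4.65, 0.738 and 1.90 at ZT3, 1.02, 3.39 and 1.07 at ZT9, 5.50, 3.34 and 1.94 at ZT15 and 3.59, 2.19 and 3.18 at ZT21. In WT it measured, in CPM, 0.581, 1.29, 0.533, 0.788 and 0.0363 at ZT3, 0 in all 5 libraries at ZT9, 0.617, 0.379, 0, 0.760 and 0.343 at ZT15, and 0 in 4 libraries with 0.149 in the other at ZT21. In PBS it measured, in CPM, 2.85, 0.729 and 0 at ZT3, 1.39, 0 and 1.72 at ZT9, 1.31, 0.383 and 0.363 at ZT15 and 0.865, 1.17 and 1.27 at ZT21. All KO libraries thus held P2rx1 reads, 9 of 12 lay above every WT library and 6 of 12 above every PBS library, so that the other 3 lay within the WT range and the other 6 within the PBS range.

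Over all timepoints P2rx1 averaged 2.71 ± 1.49 CPM (SD, n = 12) in KO, 0.274 ± 0.373 CPM (SD, n = 20) in WT and 1.00 ± 0.807 CPM (SD, n = 12) in PBS. The linear mean in KO was 9.90 times that in WT and 2.7 times that in PBS. On the log2(CPM + 0.5) scale, which understates the change of genes this low, KO minus WT was 2.03 (SE 0.19), and it was 1.22, 2.07, 2.12 and 2.7 at ZT3, ZT9, ZT15 and ZT21 (SE 0.38 each). WT held 80, 0, 48 and 3 P2rx1 reads in all at ZT3, ZT9, ZT15 and ZT21, against 289, 196, 449 and 321 in KO. The count of 0 in WT at ZT9, among 115.6 of these units over the 5 libraries, allows a level of up to 0.0259 CPM (3 reads over the group, counting error only), and relative to this KO was at least 70.4-fold and PBS at least 40.0-fold higher at that time. The KO bound falls to 40.2-fold without KO ZT9 replicate 2, and 1 of the 3 PBS libraries was itself at 0.

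WT libraries at ZT9 and ZT21 were thus nearly devoid of P2rx1, while those at ZT3 and ZT15 were not. These WT values are among those that chose the gene, so no test of time is given for them. Of the means at adjacent ranks in the order of all 12 groups, only WT at ZT15 (0.420 CPM) and WT at ZT21 (0.0299 CPM) were further apart than the larger of their SDs.

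The summed markers of macrophages and monocytes and the mean of P2rx1 were both lowest at ZT9 in WT and in KO. In WT both were also lower at ZT21 than at ZT3 and ZT15. All 10 markers of this list were in the table, and their summed level had medians of 880, 491, 1056 and 666 CPM at ZT3, ZT9, ZT15 and ZT21 in WT. In KO these medians were 1701, 943, 1952 and 1399 CPM. In PBS they were 2535, 2384, 3009 and 2293 CPM. There P2rx1 averaged 1.19, 1.04, 0.685 and 1.10 CPM, with SDs of 1.48, 0.913, 0.540 and 0.212 CPM (n = 3 each), so its order of timepoints in PBS is uncertain. The sum ranged from 879 to 3191 CPM in KO, from 422 to 1092 CPM in WT and from 1798 to 3270 CPM in PBS. Its medians were 1624, 695 and 2426 CPM in KO, WT and PBS, where P2rx1 averaged 2.71, 0.274 and 1.00 CPM. Lysozyme (Lyz2) was the most abundant marker. The macrophage receptor Mertk was at 0 in 13 libraries and Fcgr1 in 3, and the other markers of the list were above 0 in every library. Mertk alone had a lower median in KO than in WT, and all others had a higher one, such as Csf1r with 51.9 against 19.5 CPM. The platelet list, of which 8 of 11 genes were in the table, summed to 3.36 to 21 CPM in KO, 3.97 to 13 CPM in WT and 7.29 to 24.3 CPM in PBS, with the chemokine Ppbp at a median of 0. Of that list the integrin gene Itgb3 had medians of 8.18 CPM in KO, 4.47 CPM in WT and 7.75 CPM in PBS, and the chemokine gene Pf4 of 0.860, 1.02 and 1.49 CPM. The neutrophil list of 11 genes summed to 3.33 to 57.6 CPM in KO, 0.944 to 29.6 CPM in WT and 7.35 to 31.5 CPM in PBS, with the granule genes Ngp, Camp, Ltf and Mpo at medians of 0 in all 3. The part of these cells in the level of P2rx1 was not tested, and in sorted bulk samples fewer cells of a type and less RNA per cell cannot be told apart.

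Other receptors for extracellular nucleotides were listed beside P2rx1. Of 12 P2X and P2Y receptors tested, 5 were higher in KO than in WT and 0 were lower (limma, adjusted p under 0.05, against 33.7% of all 11963 genes called, 23.5% higher and 10.2% lower). Their median difference was 0.39, against 0.10 for all genes (log2). P2ry12 and P2ry6, receptors for ADP and UDP, were higher by 1.26 (SE 0.26, adjusted p = 0.000434) and 1.16 (SE 0.18, adjusted p = 1.17e-05) on the log2 scale. A second list held 9 tested genes, mostly for nucleotide release and breakdown, with the adenosine receptor gene Adora2a among them. Of these, 5 were higher and 0 lower, with Entpd1 (CD39), which degrades ATP, higher by 1.5 (SE 0.19, adjusted p = 1.25e-06) and Nt5e (CD73), which makes adenosine, by 0.91 (SE 0.33, adjusted p = 0.0331). In WT relative to PBS, 5 of the 12 receptors were lower and 0 higher (37.9% of all genes called, 24.6% lower and 13.3% higher). Of the 9 genes of the second list, 5 were lower and 1 was higher. Entpd1 differed by -1.97 (SE 0.18, adjusted p = 2.29e-09) in that comparison. Both comparisons share the WT libraries. Markers of macrophages and monocytes also had higher medians in KO (1624 CPM) and PBS (2426 CPM) than in WT (695 CPM). The same held for Langerhans cells (174, 109 and 127 CPM in KO, WT and PBS) and conventional DC type 2 (272, 201 and 345). It also held for T cells (558, 480 and 711), B cells (73.1, 58.1 and 102) and NK cells (70.4, 53.1 and 128). Neutrophil markers did so as well (10.8, 4.09 and 13.4). The summed markers of conventional DC type 1 (810, 826 and 1114) and plasmacytoid DCs (264, 273 and 357) were not higher in KO than in WT. Most of the first sum came from Irf8 (medians of 561, 579 and 803 CPM), and the single markers were split. Xcr1, Itgae and Cadm1 of the first list had higher medians in KO than in WT, and Clec9a, Irf8, Batf3 and Tlr3 lower ones. Of the second list, Siglech, Ccr9, Klk1 and Cox6a2 had higher medians in KO, and Bst2, Tcf4 and Spib lower ones. The part of all these cells in the 2 gene lists was not tested.

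Ncs1 (chr2:31245708-31295989, plus strand), an EF-hand calcium sensor that binds phosphatidylinositol 4-kinase and is best known from neurons, went the other way and was close to absent from KO. It measured, in CPM, 0, 0 and 0.0896 in KO at ZT3, 0 in all 3 libraries at ZT9, 0, 0 and 1.60 at ZT15 and 0, 1.06 and 0.218 at ZT21. In WT it measured, in CPM, 2.83, 2.18, 0.489, 3.11 and 4.25 at ZT3, 1.28, 5.62, 1.99, 2.01 and 2.28 at ZT9, 6.03, 3.37, 3.76, 1.77 and 5.29 at ZT15 and 2.61, 2.98, 2.54, 1.68 and 1.95 at ZT21. In PBS it measured, in CPM, 2.58, 1.64 and 1.31 at ZT3, 0.821, 1.92 and 3.04 at ZT9, 3.38, 2.52 and 1.32 at ZT15 and 1.32, 2.00 and 1.63 at ZT21. Of the 12 KO libraries, 8 held no read of Ncs1, whereas every WT and PBS library held some, and 10 KO libraries lay below every WT and every PBS library.

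The mean of Ncs1 was 0.247 ± 0.522 CPM (SD, n = 12) in KO, 2.90 ± 1.46 CPM (SD, n = 20) in WT and 1.96 ± 0.776 CPM (SD, n = 12) in PBS, which puts KO at 0.0852 times WT and 0.126 times PBS. The log2 difference between KO and WT was -2.26 (SE 0.24), with -2.37, -2.51, -2.40 and -1.77 at ZT3, ZT9, ZT15 and ZT21 (SE 0.47 each). At ZT9 the 0 reads in KO allow up to 0.0263 CPM, and WT was at least 100.3-fold and PBS at least 73.3-fold higher. These bounds fall to 71.9-fold without WT ZT9 replicate 2 and to 52.1-fold without PBS ZT9 replicate 3. In the order of the 12 group means, the 8 WT and PBS groups preceded the 4 KO groups, and only the step between PBS at ZT21 (1.65 CPM) and KO at ZT15 (0.533 CPM) exceeded the larger SD of its neighbours. Of 4 other members of the neuronal calcium sensor family that were tested, 1 was lower in KO than in WT (Guca1a, a sensor of photoreceptors, by -0.46 on the log2 scale, adjusted p = 0.00654 with limma) and 0 were higher, against 10.2% lower and 23.5% higher of all genes. Of 4 known partners of NCS1, only the kinase gene Pi4kb was called, with a difference of -0.75 (SE 0.17, adjusted p = 0.00106), against 33.7% of all genes. The list of neurons and glia, of which 6 of 8 genes were in the table, summed to 181 to 314 CPM in KO, 208 to 329 CPM in WT and 171 to 288 CPM in PBS, nearly all of it from the myelin gene Mbp, with S100b at a median of 0.

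Krt80 (chr15:101348315-101370162, minus strand) encodes a type II keratin, a subunit of the intermediate filaments of epithelial cells. It was higher in KO than in WT, with a wide spread within KO. The KO libraries held, in CPM, 9.05, 4.06 and 4.27 at ZT3, 2.26, 3.36 and 5.08 at ZT9, 6.04, 10.6 and 3.03 at ZT15 and 7.16, 3.72 and 3.30 at ZT21. The WT libraries held, in CPM, 1.51, 3.0, 1.64, 2.16 and 2.69 at ZT3, 2.89, 1.95, 3.15, 1.76 and 1.93 at ZT9, 3.39, 0.969, 1.28, 1.77 and 0.0980 at ZT15 and 1.94, 2.37, 1.69, 1.06 and 2.16 at ZT21. The PBS libraries held, in CPM, 5.48, 4.69 and 2.32 at ZT3, 1.64, 2.15 and 1.54 at ZT9, 2.13, 0.847 and 3.03 at ZT15 and 2.67, 0.690 and 1.21 at ZT21. Of the 12 KO libraries, 8 were above all of WT and 4 above all of PBS, so KO overlapped both.

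The mean of Krt80 was 5.16 ± 2.58 CPM (SD, n = 12) in KO, 1.97 ± 0.806 CPM (SD, n = 20) in WT and 2.37 ± 1.46 CPM (SD, n = 12) in PBS. The KO mean was 2.62 times that of WT and 2.18 times that of PBS. On the log2 scale KO minus WT was 1.17 (SE 0.21), from 0.49 at ZT9 to 1.91 at ZT15 (SE 0.42 each). No step between neighbours in the order of its 12 group means exceeded the larger of their SDs. Of 8 other keratin genes tested, 1 was higher in KO (Krt10, a keratin of differentiated epidermis, by 0.56, SE 0.11, adjusted p = 0.000197 with limma) and 1 was lower (Krt19, a keratin of simple epithelia, with a difference of -1.53, SE 0.44, adjusted p = 0.00940). Of all genes 23.5% were higher and 10.2% lower, and the median difference of the 8 keratins was -0.30. The 15 keratinocyte markers summed to 21.2 to 37.2 CPM in KO, 16.7 to 126 CPM in WT and 19.6 to 31.7 CPM in PBS, with the basal keratin Krt5 and the cornified envelope gene Ivl at medians of 0 in all 3. Krt8, Krt10, Cdh1, Sfn and Perp of that list were above 0 in every library. Langerhans cells, the DCs of the epidermis, express the epithelial adhesion gene Epcam. Their 4 markers had a median sum of 174 CPM in KO, 109 CPM in WT and 127 CPM in PBS, with ranges of 117 to 212, 81.3 to 143 and 102 to 152 CPM, and Epcam alone had medians of 76.0, 45.8 and 55.4 CPM. The part of these cells in the level of Krt80 was not tested. Krt80 shares 263 exonic bases with Gm35853 on the opposite strand, which was not listed in the table, and the sources do not say whether reads were counted by strand.

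**Figure D1:**
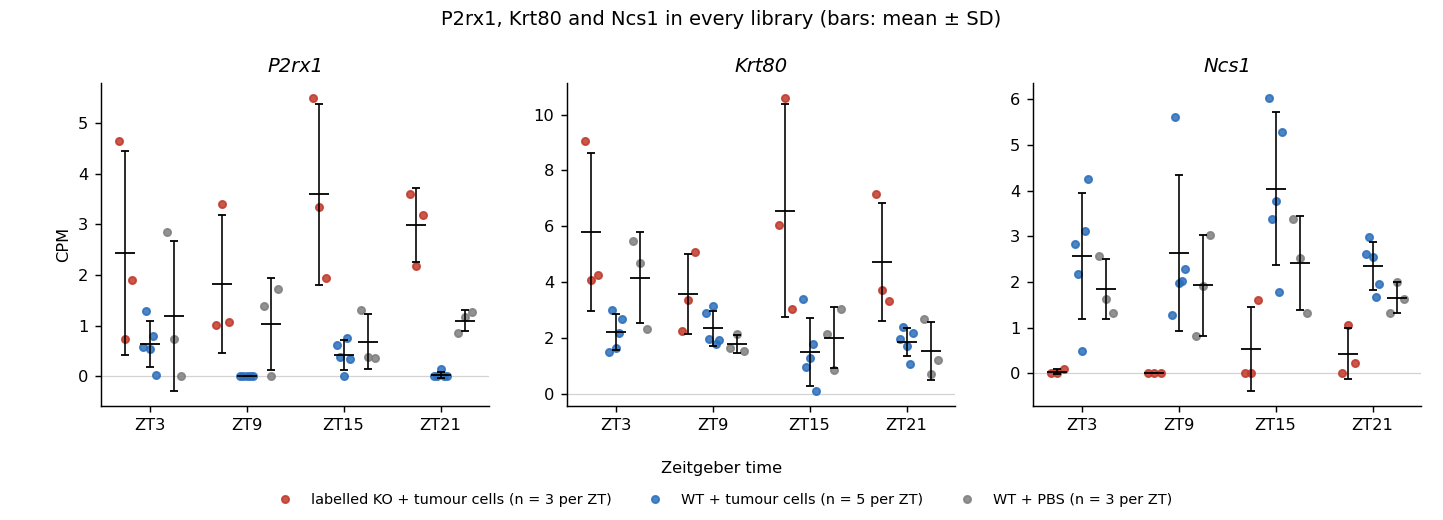
CPM (linear axis) of P2rx1, Krt80 and Ncs1 in each library (points), by ZT, for KO (red), WT (blue) and PBS (grey), with the mean ± SD of each group as bars. P2rx1 and Krt80 averaged 2.71 and 5.16 CPM in KO against 0.274 and 1.97 CPM in WT, while Ncs1 averaged 0.247 CPM in KO against 2.90 CPM in WT.

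Dynlt1b (chr17:6429530-6440500, plus strand) encodes a Tctex-type light chain of cytoplasmic dynein, the motor that carries cargo towards the minus ends of microtubules. It is 1 of 4 near-identical copies on chromosome 17, with Dynlt1a (chr17:6306344-6317520), Dynlt1c (chr17:6601779-6607891) and Dynlt1f (chr17:6646606-6655965). The coding sequence has 339 bases in every copy, and Dynlt1b differs from each of the other 3 copies by 1 base (99.7% identity), A21C, with the base of Dynlt1b first and positions counted from 1 at the start codon. Bases 1 to 60 show how little sets the copies apart, with position 21 in capitals.
Dynlt1b: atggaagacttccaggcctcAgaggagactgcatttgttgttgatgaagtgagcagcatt
Dynlt1a: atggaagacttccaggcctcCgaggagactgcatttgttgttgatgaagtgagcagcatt
Dynlt1c: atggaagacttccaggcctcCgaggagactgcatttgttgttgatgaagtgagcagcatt
Dynlt1f: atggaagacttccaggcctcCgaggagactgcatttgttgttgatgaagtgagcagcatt
Reads were 50 bases long, and 83.2% of the 50-base windows of the Dynlt1b transcript (601 of 722) also occur in another gene. All 44 Dynlt1b values were fractions of a read, unlike those of the other 5 genes, which were whole numbers of reads in all 44 libraries. The split of reads among the copies is therefore uncertain, and Dynlt1b is given beside the sum of all 4.

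Dynlt1b was lower in every KO library than in any WT or PBS library, and its KO values fell into separate ranges. The KO libraries held, in CPM, 3.18, 1.12 and 36.2 at ZT3, 0.940, 33.0 and 33.7 at ZT9, 3.16, 6.21 and 34.0 at ZT15 and 1.08, 0.672 and 1.13 at ZT21. Thus 8 KO libraries lay between 0.672 and 6.21 CPM and 4 between 33.0 and 36.2 CPM, with none in between, and the 4 came from ZT3, ZT9 and ZT15. The WT libraries held, in CPM, 64.0, 58.8, 59.9, 55.4 and 51.1 at ZT3, 76.7, 56.7, 49.0, 53.0 and 61.5 at ZT9, 53.5, 70.4, 46.0, 55.8 and 65.2 at ZT15 and 88.6, 65.7, 77.7, 58.1 and 55.4 at ZT21. The PBS libraries held, in CPM, 73.4, 78.3 and 81.8 at ZT3, 64.0, 94.3 and 80.9 at ZT9, 95.4, 128 and 80.5 at ZT15 and 83.2, 69.9 and 80.0 at ZT21. No KO library overlapped WT or PBS, while WT and PBS overlapped each other.

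The mean of Dynlt1b was 12.9 ± 15.9 CPM (SD, n = 12) in KO, 61.1 ± 10.6 CPM (SD, n = 20) in WT and 84.2 ± 16.4 CPM (SD, n = 12) in PBS, or 0.210 times WT and 0.153 times PBS for KO. The log2 difference between KO and WT was -3.44 (SE 0.40), from -2.33 at ZT9 to -5.57 at ZT21 (SE 0.80 each). A mean over KO describes none of its libraries, given the gap between 6.21 and 33.0 CPM. Among the 12 group means only the step from WT at ZT3 (57.8 CPM) to KO at ZT9 (22.5 CPM) exceeded the larger SD.

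The other copies are given for comparison. Dynlt1f ranged from 30.4 to 63.0 CPM and Dynlt1a from 2.19 to 7.51 CPM in KO. Their means in KO, WT and PBS were 47.5, 37.9 and 52.5 CPM for Dynlt1f and 4.37, 5.35 and 8.98 CPM for Dynlt1a. Dynlt1c averaged 7.04, 17.6 and 8.69 CPM and was listed at 0 in 3 KO and 5 PBS libraries. Added up, the 4 copies came to 71.8 ± 21.8 CPM (SD, n = 12) in KO, with a range of 40.9 to 105 CPM, to 122 ± 19.8 CPM (SD, n = 20) in WT and to 154 ± 29.5 CPM (SD, n = 12) in PBS. The sum was below every WT library in 10 of 12 KO libraries and below every PBS library in all 12.

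Around Dynlt1b, 6 of 11 tested neighbours within 500 kb differed between KO and WT (limma, against 33.7% of all genes), among them Dynlt1c by -1.92 and Dynlt1f by 0.32 on the log2 scale and Sytl3 and Synj2, genes of vesicle traffic, by 1.86 and 1.43. Of 22 tested subunits of cytoplasmic dynein and dynactin, which include these copies, 4 were higher and 2 lower in KO than in WT, against 23.5% and 10.2% of all genes, with a median difference of 0.07 against 0.10 for all genes. Dync1i2, an intermediate chain, was higher by 0.44 (SE 0.05, adjusted p = 8.25e-08), and Dctn2, the dynactin subunit dynamitin, differed by -0.21 (SE 0.05, adjusted p = 0.00204).

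**Figure D2:**
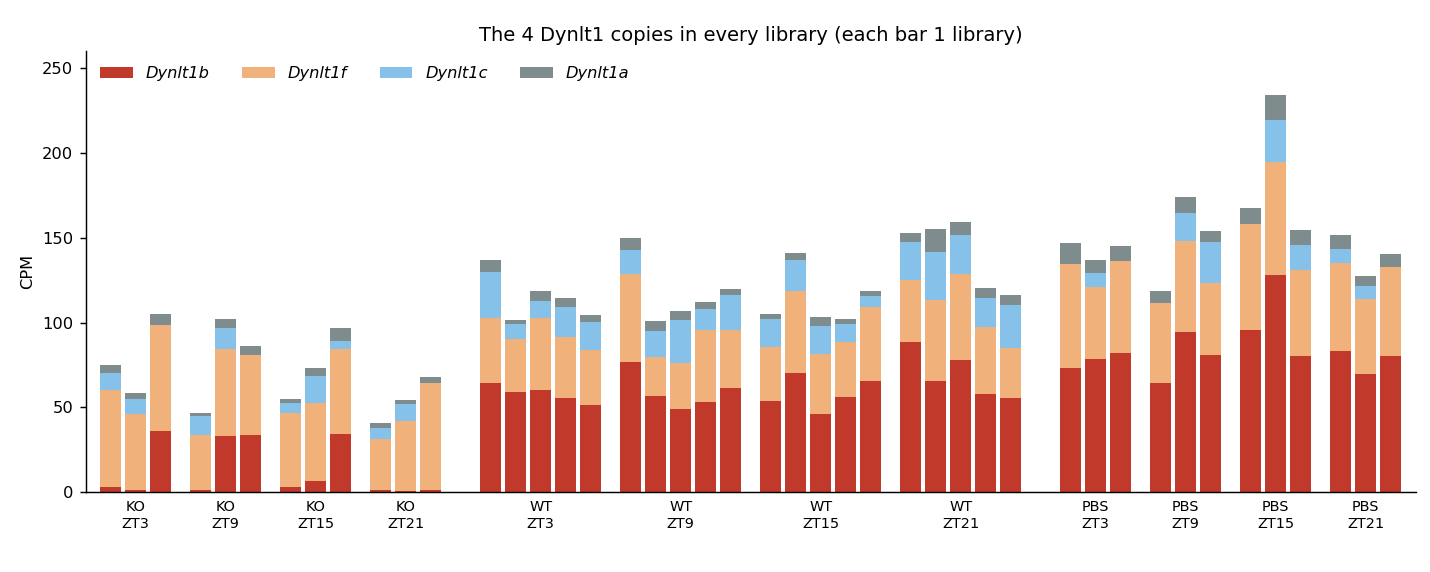
CPM (linear axis from 0) of Dynlt1b, Dynlt1f, Dynlt1c and Dynlt1a stacked for each library, 1 bar per library, for KO, WT and PBS. Dynlt1b is at 0.672 to 6.21 CPM in 8 KO libraries and at 33.0 to 36.2 CPM in 4, and the sum of the copies reaches 40.9 to 105 CPM in KO against a mean of 122 CPM in WT.

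Cfap43 (chr19:47736857-47837454, minus strand) encodes a protein of the axoneme, the microtubule core of motile cilia and sperm tails. Its time course in KO ran from a trough at ZT9 to a peak at ZT21. The KO libraries held, in CPM, 1.10, 1.74 and 2.06 at ZT3, 0.508, 0.122 and 0.0712 at ZT9, 3.19, 1.66 and 2.14 at ZT15 and 5.57, 3.54 and 4.98 at ZT21. The WT libraries held, in CPM, 0.465, 2.18, 2.22, 1.53 and 1.12 at ZT3, 1.89, 1.72, 3.11, 2.30 and 1.18 at ZT9, 1.45, 0.927, 2.56, 0.634 and 1.91 at ZT15 and 1.33, 2.29, 1.69, 1.35 and 1.77 at ZT21. The PBS libraries held, in CPM, 1.02, 1.66 and 2.09 at ZT3, 0.678, 2.69 and 2.32 at ZT9, 2.84, 1.98 and 0.700 at ZT15 and 2.49, 1.67 and 0.751 at ZT21. The 3 KO libraries at ZT9 lay below, and the 3 at ZT21 above, every WT and PBS library of the same time.

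The KO means of Cfap43 were 1.63 ± 0.491, 0.234 ± 0.239, 2.33 ± 0.785 and 4.70 ± 1.04 CPM (SD, n = 3) at ZT3, ZT9, ZT15 and ZT21, from 205, 27, 279 and 506 reads. WT means stayed between 1.5 and 2.04 CPM and PBS means between 1.59 and 1.89 CPM. Over all timepoints the means were 2.22 CPM in KO, 1.68 CPM in WT and 1.74 CPM in PBS. KO minus WT was 0.16, -1.79, 0.56 and 1.25 on the log2 scale at ZT3, ZT9, ZT15 and ZT21 (SE 0.32 each), which averages to 0.04 (SE 0.16). In the order of group means KO at ZT21 stood above KO at ZT15, and WT at ZT15 above KO at ZT9, by more than the larger SD, and no other neighbours did. The summed ciliated cell markers, 7 of 11 of which were in the table, had medians of 18.2, 17.3, 24.9 and 23.0 CPM in KO at ZT3, ZT9, ZT15 and ZT21, and ranged from 13.5 to 43.9 CPM in KO, 12.9 to 28 CPM in WT and 13 to 29.1 CPM in PBS. The ciliary transcription factor Foxj1 was at 0 in 12 libraries, while Tppp3 and Ccdc40 of that list were above 0 in every library. The part of such cells in the Cfap43 values was not tested. Of 7 other cilia and flagella associated genes tested, 1 (Cfap36, by 0.27, adjusted p = 0.0127 with limma) was higher in KO than in WT and 0 were lower, against 23.5% and 10.2% of all genes. Cfap43 shares 164 exonic bases with Itprip on the same strand.

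Zfp667 (chr7:6286195-6307883, plus strand), a zinc finger gene of a KRAB type, had no read in KO at ZT3 and its highest KO values at ZT15. The KO libraries held, in CPM, 0, 0 and 0 at ZT3, 0.127, 1.68 and 0.522 at ZT9, 6.02, 2.86 and 2.58 at ZT15 and 3.24, 1.92 and 0.374 at ZT21. The WT libraries held, in CPM, 0.813, 0.390, 0.400, 1.66 and 0.327 at ZT3, 0.426, 1.95, 1.73, 0.451 and 0.866 at ZT9, 1.28, 0.590, 0.173, 0.549 and 0.0490 at ZT15 and 0, 0, 0.597, 0.532 and 0.173 at ZT21. The PBS libraries held, in CPM, 0, 1.35 and 0.207 at ZT3, 0.571, 0 and 1.32 at ZT9, 0.313, 1.53 and 0.104 at ZT15 and 0.351, 0.0476 and 0.686 at ZT21. All 3 KO libraries at ZT15 were above every WT and PBS library, and KO overlapped WT at ZT9 and ZT21.

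The KO means of Zfp667 were 0, 0.777, 3.82 and 1.84 CPM at ZT3, ZT9, ZT15 and ZT21, against 0.718, 1.08, 0.528 and 0.260 CPM in WT. The count of 0 in KO at ZT3, among 120.2 units of 1000000 reads, allows up to 0.0250 CPM, so that WT was at least 28.8-fold and PBS at least 20.8-fold higher at that time. The PBS bound rests on 1 library and falls to 4.14-fold without PBS ZT3 replicate 2, and another PBS library was itself at 0. KO minus WT was -1.18, -0.38, 2.11 and 1.47 on the log2 scale at the 4 timepoints (SE 0.47 each), and 0.50 (SE 0.23) on average. Only KO at ZT15 stood above its neighbour in the order of group means (KO at ZT21) by more than the larger SD. Of 5 tested neighbours within 500 kb of Zfp667, 0 were called between KO and WT (limma, adjusted p under 0.05, and 0 also at an unadjusted p under 0.05). The counts were 4 of 12 around P2rx1, 2 of 5 around Krt80, 6 of 13 around Ncs1 and 4 of 7 around Cfap43. With 33.7% of all genes called, counts this small do not set 1 locus apart from another. Among them Nr4a1, an immediate early gene in the window of Krt80, differed by 1.92 (SE 0.16) and Itgae (CD103), in that of P2rx1, by 1.36 (SE 0.23) on the log2 scale.

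**Figure D3:**
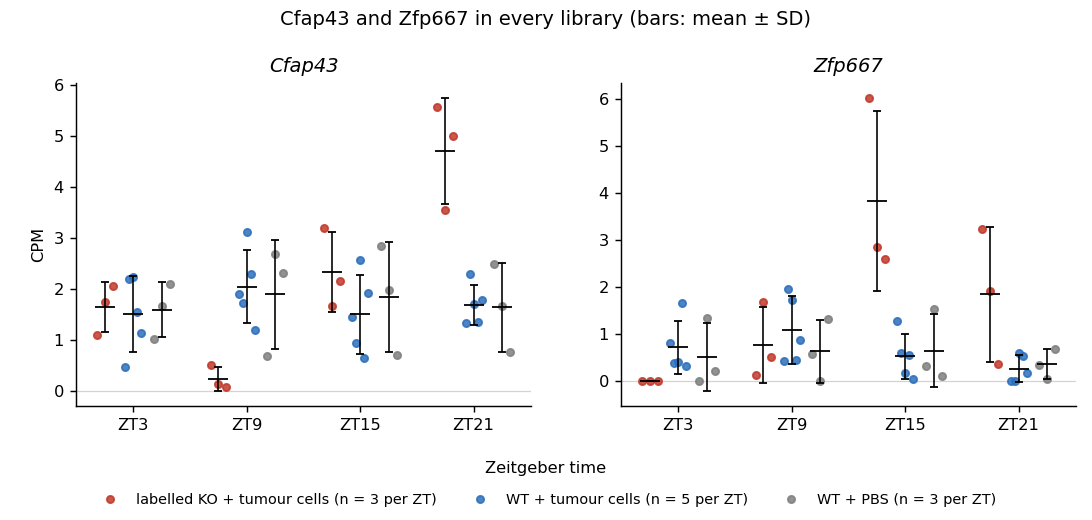
CPM (linear axis) of Cfap43 and Zfp667 in each library (points), by ZT, for KO (red), WT (blue) and PBS (grey), with the mean ± SD of each group as bars. In KO Cfap43 was lowest at ZT9 (0.234 CPM) and highest at ZT21 (4.70 CPM), and Zfp667 was lowest at ZT3 (0 CPM) and highest at ZT15 (3.82 CPM).

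Because both genes were chosen for their time course, the start regions of Cfap43 and Zfp667 were searched for the elements through which clock factors act. The sequences, from 250 bases before to 50 bases after the start site that the RefSeq promoter table gives on GRCm38.p6, are printed with Cfap43 at chr19:47837312-47837611 (minus strand, 61% G and C) and Zfp667 at chr7:6286330-6286629 (plus strand, 67.7% G and C), written 5′ to 3′ with no base in capitals since no element was found. These start sites lie 93 bases (Cfap43) and 385 bases (Zfp667) inside the gene spans given above, so the windows cover other bases than those around the outer ends of the genes.
Cfap43: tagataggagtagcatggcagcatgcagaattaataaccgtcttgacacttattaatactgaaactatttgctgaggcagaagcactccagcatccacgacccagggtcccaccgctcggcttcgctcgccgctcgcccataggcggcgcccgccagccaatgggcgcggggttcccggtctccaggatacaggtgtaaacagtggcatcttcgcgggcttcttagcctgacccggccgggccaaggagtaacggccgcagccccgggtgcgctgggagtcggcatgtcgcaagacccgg
Zfp667: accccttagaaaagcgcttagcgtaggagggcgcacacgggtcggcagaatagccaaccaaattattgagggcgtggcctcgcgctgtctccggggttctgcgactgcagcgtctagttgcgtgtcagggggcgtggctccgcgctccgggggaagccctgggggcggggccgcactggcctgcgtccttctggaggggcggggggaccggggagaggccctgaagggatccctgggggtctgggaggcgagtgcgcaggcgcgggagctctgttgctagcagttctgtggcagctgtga
The canonical E-box CACGTG occurs in 7.15% of 32851 promoters of this length, the E-box variant CACGTT in 4.68%, the D-box TTATGTAA in 0.938% and the nuclear receptor half-site AGGTCA in 16.3%, counted on both strands. None of the 4 elements is in the windows of Cfap43, Zfp667, P2rx1 or Ncs1, the 4 of 6 genes with a RefSeq entry of this kind, which says only that these letters are not in these windows.

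Over all genes, 33.7% passed the threshold of limma between KO and WT and 0.0502% for the interaction of genotype with time. No such count is given for the 6 genes, since they were chosen on these values. Between WT and PBS, averaged over timepoints, 37.9% of all genes differed, 13.3% higher and 24.6% lower in WT. The WT libraries of this comparison are those of the KO comparison, so the differences of the 6 genes between WT and PBS are given without a test too. On the log2 scale WT minus PBS was -0.89 for P2rx1 (SE 0.23), -0.15 for Krt80 (SE 0.20) and 0.41 for Ncs1 (SE 0.21). It was -0.45 for Dynlt1b (SE 0.09), -0.01 for Cfap43 (SE 0.19) and 0.17 for Zfp667 (SE 0.25). P2rx1 and Dynlt1b were thus the members that stood lowest in WT relative to PBS. The sum of the 4 Dynlt1 copies averaged 122 CPM in WT and 154 CPM in PBS, a ratio of 0.790, with 10 of 20 WT libraries below every PBS library. Dynlt1c went against the sum, at 17.6 CPM in WT and 8.69 CPM in PBS (a ratio of 2.02), with 5 PBS libraries listed at 0. Of the lists of related genes, the keratins had 2 of 8 higher and 1 lower in WT than in PBS, the dynein and dynactin subunits 4 of 22 higher and 5 lower, the calcium sensors 0 of 4 higher and 2 lower, and the cilia and flagella associated genes 1 of 7 higher and 3 lower. The keratin gene Krt19 was higher by 1.53 (SE 0.44, adjusted p = 0.00746), and the calcium sensor gene Hpcal1 differed by -0.27 (SE 0.06, adjusted p = 0.00141). Their medians on the log2 scale were 0.66, -0.08, -0.35 and -0.29, against -0.04 for all genes.

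**Figure D4:**
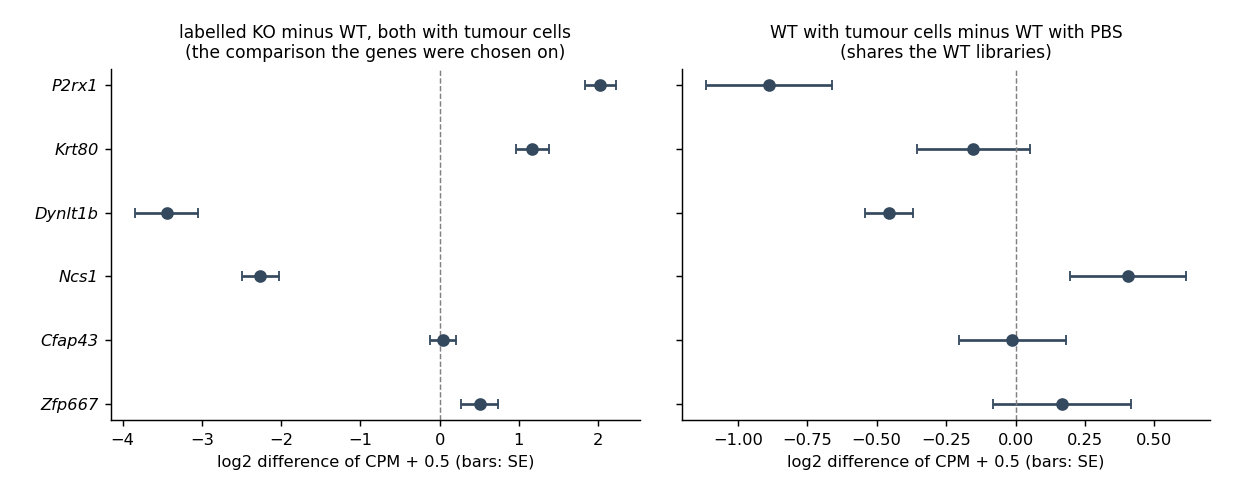
Log2 differences of the 6 genes on the log2(CPM + 0.5) scale (points) with their SE (bars), on the left KO minus WT, which chose the genes, and on the right WT minus PBS, which shares the WT libraries. No test is drawn, and the horizontal scales of the 2 panels differ. P2rx1 is at 2.03 on the left and -0.89 on the right, and Dynlt1b at -3.44 and -0.45.

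The rule of choice does not say whether PBS values were used. No conclusion on the 6 genes is therefore drawn from the test of time of day in PBS. There 0 of the 6 genes differed among timepoints (limma, adjusted p 0.697 to 0.998), and 0% of all genes did, with 890 of 11963 at an unadjusted p under 0.05. The interaction of treatment with time between WT and PBS was called for 0% of all genes, with 1423 at an unadjusted p under 0.05, and no test of it is given for the 6 genes, since the WT libraries took part in their choice. Of 18 core clock and clock-controlled genes tested, 7, the targeted gene Arntl among them, were higher and 3 lower in KO than in WT (23.5% and 10.2% of all genes), with a median difference of 0.17 against 0.10 for all genes. Among them the repressor Per1 differed by -0.59 (SE 0.14, adjusted p = 0.00151) and the output factor Hlf by 1.47 (SE 0.26, adjusted p = 8.38e-05). In WT 2 of the 18 (Dbp and Hlf) differed among timepoints, against 5.28% of all genes.

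The genes most like each of the 6 were ranked by Pearson's r of log2(CPM + 0.5) over the 44 libraries, as a description. P2rx1 was most like St6galnac3 (r = 0.748), Adora3 (0.748) and Pilrb2 (0.737), of which the adenosine receptor gene Adora3 averaged 2.09 CPM in KO, 0.481 CPM in WT and 1.06 CPM in PBS. Krt80 was most like Cenpl (0.708), Cfap43 most like Phka2 (0.586) and Zfp667 most like Ube3c (0.659). Dynlt1b and Ncs1 shared their first 2 genes, Trim30d (0.865 and 0.824) and Trim12a (0.815 and 0.813). Both lie on chromosome 7, 8.71 and 8.88 Mb from Arntl, and Trim30d ranged from 0 to 3.72 CPM in KO and from 15.6 to 32.5 CPM in WT. The libraries of a group share genotype, treatment and time, and these r values include the differences between groups. After the mean of each group had been removed, the first genes were Cd151 for P2rx1 (0.652), Cenpl for Krt80 (0.639), 4931428F04Rik for Dynlt1b (0.613), Ubash3a for Ncs1 (0.640), Mxra7 for Cfap43 (0.665) and Pik3ca for Zfp667 (0.715), so that Cenpl alone led in both rankings. Between Dynlt1b and Ncs1 themselves r was 0.697 over the libraries and 0.209 after the group means had been removed.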

How the data were processed

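RNA was amplified with SMART-Seq v4, made into libraries with Nextera XT and sequenced as single reads of 50 bases. The authors aligned the reads to mm10 with STAR (version 2.7.0), counted them on genes with HTSeq (version 0.9.1) and deposited CPM values scaled by library size. CPM therefore depend on the other genes of the library. In each library 86.0% to 87.6% of values were whole multiples of the value of 1 read (tolerance 0.001 reads), which gave the reads on genes. The others were fractional, so no test for counts was run.

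Libraries were grouped by their labels. Genes that reached 1 CPM in 5 or more of the 44 libraries (11963 of 14699) were fitted on log2(CPM + 0.5) with limma 3.58.1 in R 4.3.3, with group means for each timepoint, using only the arms compared, moderated by empirical Bayes, adjusted by Benjamini-Hochberg over the 11963 genes and called at an adjusted p under 0.05. Each library is taken as 1 mouse, as the methods state. For the 6 genes no p is given for KO or WT values, which the choice used. The p for timepoints in PBS are given, although the rule of choice does not say whether PBS values were used. The F tests for timepoints have no sign and the other tests are two-sided. Data were handled in Python 3.11.15 with numpy 2.4.6 and pandas 2.3.3.

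The 6 genes and the gene lists were chosen with earlier results of these data known. The text names these genes, Arntl, the copies of Dynlt1b, the genes most like each of the 6, genes within 500 kb and up to 4 called genes of each list. Where a group had no read, folds are lower bounds against 3 reads over the group. Windows of 50 bases were compared with GENCODE transcripts of the same assembly. Other pseudocounts, scaling by medians of ratios, no filter, an intensity trend, array weights, a block for the replicate number, a cosinor and leaving out each library were tried. Replicate numbers showed no pairing of the mice, and the fits were tested on simulated data.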

Additional observations from a re-analysis of the deposited data

Results flagged for a closer look

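Of 24 groups of 5 WT libraries of the 6 genes, 2 held a library far from the other 4, and chance alone gives about 1 in 20 where values are not held at 0. P2rx1 was at 0.149 CPM in WT ZT21 replicate 3 and at 0 CPM in the other 4 libraries of that group, and beside 4 values of 0 any single read would stand apart in this way. Ncs1 was at 5.62 CPM in WT ZT9 replicate 2, with the other 4 libraries between 1.28 and 2.28 CPM.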

How the results depend on the processing

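The differences of P2rx1, Krt80, Dynlt1b and Ncs1 between KO and WT kept their direction under every alternative, as did those of P2rx1 (-1.69 to -0.60) and Dynlt1b (-0.51 to -0.40) between WT and PBS. The KO and WT values of these same libraries chose the genes, so an unchanged direction is no independent support for a difference. The size of low genes depended on the pseudocount, with 1.48 and 3.37 for P2rx1 in KO minus WT at pseudocounts of 1 and 0.1, and -1.63 and -3.88 for Ncs1. The sign of Cfap43, which is near 0, turned in KO minus WT (-0.12 to 0.09) and in WT minus PBS, to 0.0263 with scaling by medians of ratios, 0.0278 with array weights and 0.0692 with a replicate block, and ran from -0.124 to 0.0680 over the libraries left out. Counts of called genes moved as follows. The interaction of genotype with time (6 genes) gave 12 and 11 at pseudocounts of 1 and 0.1, 78 with an intensity trend, 1071 with array weights and 4 to 311 with a library left out. That of treatment with time (0) gave 1 with medians of ratios, 5 without the filter and 0 to 38 with a library left out, the most without WT ZT15 replicate 2. Timepoints in PBS (0) gave 2 without the filter, 3 with a trend and 0 to 1 with a library left out. Timepoints in WT (632) gave 2462 with array weights, 341 with the block, 3 with the cosinor, 278 without WT ZT15 replicate 1 and up to 1313 without WT ZT3 replicate 3. Timepoints in KO (0) gave 9 with a trend, 22 with array weights and 0 to 7 with a library left out, the most without KO ZT15 replicate 1. KO minus WT stayed between 3278 and 4673 and WT minus PBS between 3681 and 4965 genes, the lowest with the block. The causes were not tested. In their deviations from group means, libraries of different arms with the same timepoint and replicate number correlated between -0.100 and 0.174 (median 0.0159 over 24 pairs), and those of 1 arm with the same number at different timepoints between -0.237 and 0.163 (median -0.0105 over 66 pairs). Pairs with different numbers spread over similar ranges, from -0.201 to 0.165 between arms (median 0.00155 over 96 pairs) and from -0.212 to 0.274 within 1 arm (median 0.00372 over 192 pairs). The numbers thus showed no pairing of mice, which does not exclude one. The replicate block changed no call that is given for the 6 genes, but these are only the tests of timepoints in PBS, which were all far from the threshold. P2rx1, Ncs1 and Zfp667 were at 0 in 12, 8 and 7 libraries, where a level below that of 1 read cannot be measured. The libraries at 0 were 10 of WT and 2 of PBS for P2rx1, and 3 of KO, 2 of WT and 2 of PBS for Zfp667. For Ncs1 all 8 were of KO, whose libraries were each deeper than every WT library. The part of depth in these values was not tested.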
